A study of Mus musculus with 25 samples.

Results

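Gene expression was compared between sorted cortical cells of wild-type (WT) mice 3 days after spinal cord injury (SCI) and the same kind of cells after a sham operation. Genotype, treatment and recovery time as labelled chose the libraries, which gave 3 SCI day 3 libraries and 4 sham libraries, 7 of the 25 in the series. All mice were C57BL/6 young adults of both sexes, 4 to 6 weeks old, and carried *Rest* alleles flanked by loxP sites (REST flx/flx) and a TdTomato reporter behind a STOP cassette that Cre removes (STOP flx/flx TdTomato). WT mice received AAV-Syn-GFP in the sensorimotor cortex, a virus with the human synapsin promoter that makes green fluorescent protein (GFP) and no Cre, so that WT here means floxed *Rest* left in place. REST conditional knockout (cKO) mice, cited only beside the WT values, received AAV-Syn-Cre instead, with the same promoter. The SCI was a complete crush of the thoracic cord. About 1000 GFP-positive cells were sorted per library, and 3′ mRNA libraries were made from them. The gate takes any cell of the injected cortex that the stains mark as live and that has enough GFP, whether or not its axon reached the crush. Day 3 replicates 5, 16 and 22 belong to batches 1, 2 and 3, and were labelled female, male and male. Sham replicates 3, 10, 14 and 17 belong to batches 1, 1, 2 and 2, and were labelled male, female, female and male. Batch 3 has no WT sham library, and the labels tie no library to a particular mouse.

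Neurons of the corticospinal tract run from the motor cortex to the spinal cord, and in the adult their cut axons do not grow back over long distances. Injured peripheral neurons, which do regrow, switch on transcription factors such as Atf3, Jun, Sox11, Smad1 and Stat3, and with them proteins of the growth cone. REST is a zinc finger repressor that recruits histone-modifying corepressors to the promoters of neuronal genes, among them ion channels, receptors and vesicle proteins. The comparison asks which of these programs, and which others, differ in the cortex 3 days after its axons were crushed far away.

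Every value below is on the deposited log scale, and a difference is day 3 minus sham in log units. The study calls the scale log2, while the table itself names no base. Read as powers of 2 the top gene holds 0.0818% to 0.154% of a library's total, and read as powers of 10 it holds 2.36% to 10.4%, so no linear fold is given. Such values do not show how deeply each library was read. Day 3 values are listed in the order of replicates 5, 16 and 22, and sham values in the order of replicates 3, 10, 14 and 17. A fitted difference is the difference of group means once the authors' first 2 components of sequencing and alignment quality are in the model, so it can exceed the difference of the listed values.

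The sorted cells carried strong signal of microglia. All 19 microglia and macrophage markers were measured, and 18 of them lay among the top 10% of the 9931 genes by mean value over the 7 libraries, with a median rank of 110. *Ctss*, a lysosomal protease, ranked 3 with a mean of 4.44, and the chemokine and purine receptors *Cx3cr1* and *P2ry12* had means of 3.37 and 3.12. Of 15 neuron markers 14 were measured, with a median rank of 3203 and 1 in the top 10%. That 1 was *Syt1*, the calcium sensor of vesicle release, at rank 292 with a mean of 2.70, whereas *Rbfox3*, which encodes the nuclear antigen NeuN, ranked 3062 with 1.26, and *Nefh* was not analysed here. The immunoglobulin genes *Igkc* and *Igha*, at ranks 2 and 4, and the lipid carrier gene *Apoe*, at rank 8, ranked among the microglial genes. These markers go against a label of neurons alone, and the libraries are called sorted GFP-positive cells. Ranks order deposited values, which are not counted per length and do not measure numbers of cells, and in such bulk libraries fewer cells of a type and less RNA per cell cannot be told apart.

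Marker means varied between libraries of the same group. The mean over the 19 microglia and macrophage markers was 3.05, 2.59 and 3.07 at day 3 and 3.08, 3.07, 2.92 and 2.89 after sham, which is lowest in day 3 replicate 16. The mean over the 14 neuron markers was 1.09, 1.37 and 1.23 at day 3 and 0.13, 1.39, 0.86 and 1.24 after sham, and sham replicate 3 was the low library. For the 14 of 18 astrocyte markers that were measured, the means were 0.35, 2.02 and 1.16 at day 3 and 0.91, 1.21, 1.06 and 1.12 after sham, with day 3 replicate 16 high and replicate 5 low. The 16 endothelial markers had means of 2.61, 1.45 and 1.97 at day 3 and 1.25, 1.17, 1.53 and 1.79 after sham, and day 3 replicate 5 was the highest. *Gfap*, *Aqp4*, *Aldh1l1* and *Acsbg1*, which define astrocytes, were not analysed here, and the part of any of these cells in the differences below was not tested.

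Day 3 replicate 5 stands apart by its low values. In it 29.5% of the 9931 genes had a value under −2, against 7.74% and 6.44% in day 3 replicates 16 and 22 and 3.85% to 12.1% in the sham libraries. Its median value, 0.82, was below 0.92 and 1.06 in the other day 3 libraries but within the range of 0.55 to 1.19 after sham. Replicate 5 was the lowest of the 3 day 3 libraries for 45.1% of all genes. Among the genes that came out lower at day 3 it was the lowest for 65.4%, and 68.2% of those genes had a value under −2 in it. Of the genes that came out higher, 34.1% had a value under −2 in sham replicate 10, beside 12.1% of all genes. In sham replicate 3 the share was 14.7% beside 7.89%. Day 3 replicate 5 was the highest day 3 library for 46.0% of the higher genes, beside 32.6% of all genes. Sex-linked genes followed the labels in part. *Xist*, the RNA of the silenced X chromosome, had values of 2.48, 0.09 and 1.06 at day 3 and 0.44, 2.44, 2.61 and 0.43 after sham. The Y-linked helicase gene *Ddx3y* had −1.94, 2.63 and 2.61 at day 3 and 2.18, −0.60, −0.32 and −0.77 after sham. Sham replicate 17, labelled male, had low *Xist* together with a *Ddx3y* value below those of both female sham libraries. *Eif2s3y*, also Y-linked, followed the labels, with −1.88, 1.88 and 2.26 at day 3 and 1.12, −0.17, 0.02 and 0.62 after sham. Its value in sham replicate 17 was thus above those of both female sham libraries. *Kdm5d*, *Uty* and *Tsix* did not follow the labels. *Kdm5d*, on the Y chromosome, had 1.19, 0.89 and 0.88 at day 3 and 1.05, 1.58, 0.54 and 0.73 after sham, and *Uty*, on the same chromosome, had 1.07, 0.30 and 1.31 at day 3 and 1.87, −0.68, 0.60 and −0.43 after sham. For *Tsix*, antisense to *Xist*, the values were −2.51, 0.03 and 1.23 at day 3 and 0.03, 1.95, 2.37 and −0.75 after sham. Day 3 replicate 5, labelled female, has 1.19 for *Kdm5d*, 1.07 for *Uty* and the lowest *Tsix*. Between day 3 and sham the 6 genes counted 0 higher and 0 lower, with a median difference of 0.08.

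**Figure D1:**
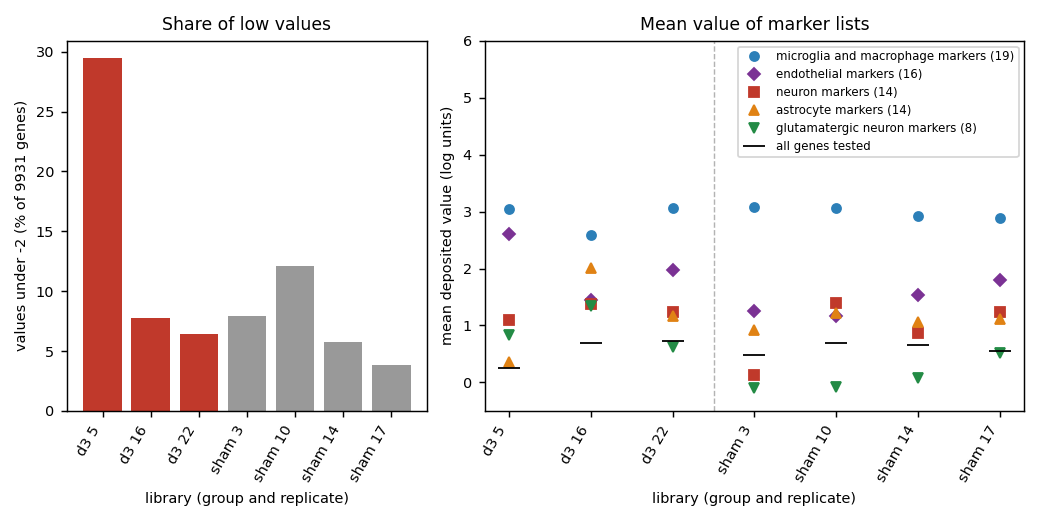
Left, the share of 9931 genes with a deposited value under −2 in each library, in percent, highest in day 3 replicate 5 at 29.5%. Right, the mean deposited value of 5 marker lists in each library, in log units, with the number of measured markers in brackets and a dash for the mean over all genes, where the microglia list lies above the neuron list in all 7 libraries.

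*Foxp1*, a forkhead transcription factor of projection neurons and of many other cells, was the 1 gene (0.0101% of 9931) that changed at day 3, and it rose. Its values were 3.70, 3.27 and 2.74 at day 3 and 1.76, 1.72, 1.45 and 2.61 after sham, or 3.23 ± 0.48 (SD, n = 3) against 1.88 ± 0.50 (SD, n = 4). All 3 day 3 libraries lie above all 4 sham libraries, with sham replicate 17 the nearest. The fitted difference was 1.86 ± 0.34 (SE, adjusted p = 0.097), and within batches 1 and 2, a split chosen after seeing the data, the day 3 library exceeded the mean of the 2 sham libraries by 1.96 and 1.24. *Foxp1* lies on the minus strand at chr6:98925338-99522721 in build GRCm38 and is the member with the highest value among the 13 measured of 17 FOXP and forkhead factors, whose median difference of 0.03 stands beside 0.01 over all genes. The other forkhead factors on the list counted 0 at an unadjusted p-value under 0.05 in either direction. The call is narrow: it ended when day 3 replicate 5 or 16 or sham replicate 3, 10 or 14 was left out, with 0 genes passing in limma in each case, and without day 3 replicate 22 there were 5. It also ended, again with 0 genes, with a term for batch or for the share of low values, with no components, with only the 7 or the 13 WT libraries, with library weights, no trend or quantile normalization. Over 18 other fits the difference of *Foxp1* stayed between 1.35 and 2.05.

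At an unadjusted p-value under 0.05 the count was 685 of 9931 genes (6.9%), of which 361 (3.64%) were higher at day 3 and 324 (3.26%) lower. The 3 day 3 values lay wholly above the 4 sham values in 395 genes (3.98%) and wholly below them in 254 (2.56%), a split that quantile normalization turned to 286 and 339. Leaving out a library makes separation easier: without day 3 replicates 5, 16 and 22 these counts were 978, 821 and 922 higher and 560, 707 and 767 lower, and without sham replicates 3, 10, 14 and 17 they were 647, 608, 582 and 626 higher and 408, 336, 461 and 475 lower. The lower count rests on single libraries, since it was 212 without day 3 replicate 5 and 516 without day 3 replicate 22. When the share of low values entered the model as a covariate it was 213. Of the 324 lower genes 145 (44.8%) still had an unadjusted p-value under 0.05 in the same direction without replicate 5, as did 203 (56.2%) of the 361 higher genes, and without sham replicate 10 these shares were 54.0% and 56.8%. None of these genes but *Foxp1* passed the test, so the values that follow are given as levels and differences and not as changes.

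The 10 genes named on the higher side are those of lowest p among genes without overlap, with a mean of at least 0 and no correlation with a component. *Slc22a17*, a receptor for the iron carrier lipocalin, had values of 2.26, 3.17 and 2.70 at day 3 and 0.19, 1.76, 1.20 and 1.45 after sham, and its difference was 1.89 ± 0.43 (SE, adjusted p = 0.33). For *Zfand5*, a zinc finger protein that stimulates the proteasome, the values were 2.21, 2.54 and 2.98 at day 3 and 0.16, 0.49, 0.74 and 1.19 after sham, and the difference was 2.50 ± 0.57 (SE, adjusted p = 0.33). In both genes every day 3 library is above every sham library, and sham replicate 3 is the lowest. *Nek9*, a kinase of mitosis, had 2.39, 2.82 and 3.18 at day 3 and 0.51, −0.09, 1.45 and 1.81 after sham, and *Hnrnpdl*, an RNA-binding splicing regulator, had 3.95, 3.13 and 3.83 at day 3 and 0.26, 1.93, 2.78 and 2.39 after sham, with differences of 2.40 ± 0.56 (SE) and 2.14 ± 0.52 (SE). *Mapt*, which encodes the axonal microtubule protein tau, had 1.82, 3.33 and 2.50 at day 3 and 0.99, 1.59, 1.52 and 1.42 after sham, with a difference of 1.49 ± 0.38 (SE, adjusted p = 0.46). Here the tau values peak in replicate 16, and the sham values keep within 1 log unit. *Epha4*, a receptor for ephrins that repels growing axons and restrains corticospinal sprouting, had 3.47, 3.42 and 1.12 at day 3 and 0.71, −2.99, 0.41 and 0.21 after sham. Replicates 5 and 16 are high and replicate 22 lies near the sham values, while sham replicate 10 is far below the rest, and the difference of 3.78 ± 0.96 (SE) is the largest among these 10 genes. *Slco1a4*, an organic anion transporter of brain endothelium, had 3.44, 2.45 and 3.37 at day 3 and 2.42, 0.78, 2.17 and 1.43 after sham. *Tsc22d1*, a transcription regulator induced by TGF-β, had 3.37, 2.85 and 3.00 at day 3 and 0.14, 1.76, 1.96 and 1.95 after sham. *Pik3ip1*, an inhibitor of PI3 kinase, had 2.53, 2.72 and 3.10 at day 3 and 0.53, 1.31, 1.58 and 1.83 after sham. Their differences were 1.84, 1.98 and 1.71, and the adjusted p-values of the 9 genes beside *Foxp1* ran from 0.330 to 0.537.

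The 10 genes named on the lower side, chosen in the same way, did not pass the test either. *Vegfb* and *Ebp*, given further on, had lower p-values with groups that overlap. *Arhgap1* had values of −2.93, −1.56 and 0.45 at day 3 and 1.81, 2.20, 0.58 and 1.96 after sham and a difference of −3.17 ± 0.90 (SE, adjusted p = 0.537). *Mif*, a cytokine and tautomerase, had 0.56, 1.06 and 1.32 at day 3 and 2.19, 2.29, 3.08 and 1.91 after sham, with a difference of −1.70 ± 0.49 (SE, adjusted p = 0.537). The 2 genes separate the groups differently, since *Mif* is at least 0.56 in all 7 libraries and *Arhgap1* falls to −2.93 in replicate 5. *Blvrb*, which reduces biliverdin in haem breakdown, had −2.03, −1.13 and −0.88 at day 3 and 1.67, 1.84, 2.85 and −0.02 after sham. *Cdkal1*, which modifies transfer RNA, had −2.65, −1.99 and 1.07 at day 3 and 2.07, 1.58, 1.62 and 1.35 after sham. *Prkx*, a kinase activated by cyclic AMP, had −2.22, −0.71 and −0.80 at day 3 and 0.82, 1.43, 1.04 and 0.58 after sham. *Psmc5*, an ATPase of the proteasome cap, had −1.97, −0.50 and −0.67 at day 3 and 0.46, 1.83, 2.66 and 0.16 after sham. Replicate 5 was the lowest day 3 library in each of these 4 genes, and their differences were −3.51, −3.47, −2.98 and −2.85. *Ccng2*, an unconventional cyclin of resting cells, had −2.55, 1.21 and 1.33 at day 3 and 2.31, 1.94, 2.93 and 1.74 after sham, and here replicates 16 and 22 lie less than 1 log unit below the lowest sham value while replicate 5 is far lower. *Taf10*, a subunit of the general transcription factor TFIID, had 0.14, −0.43 and −0.38 at day 3 and 1.83, 2.38, 1.79 and 1.62 after sham. *Pald1*, a phosphatase-like protein, had 0.58, 0.93 and 1.39 at day 3 and 2.25, 2.32, 3.19 and 2.28 after sham. For *Ccdc117*, a gene of little known function, replicate 5 was lowest again, with −2.55, −0.93 and −1.13 at day 3 and 0.25, 1.69, 1.28 and 1.97 after sham. The adjusted p-values of the 10 genes ran from 0.537 to 0.603.

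**Figure D2:**
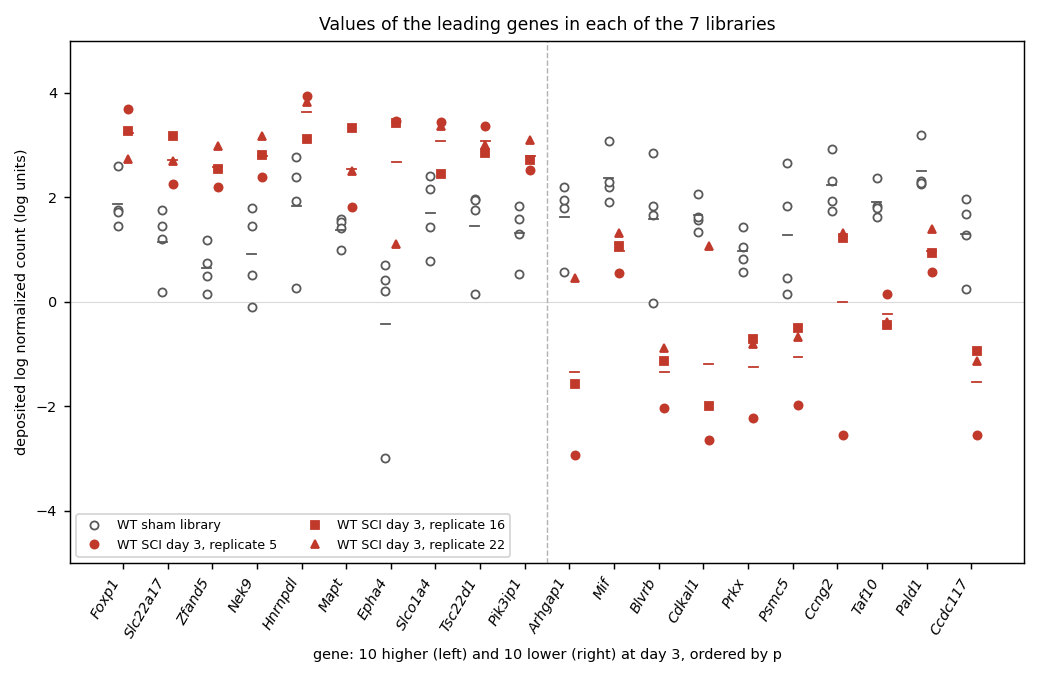
Deposited values, in log units, of the 10 genes named on the higher side and the 10 on the lower side, with a point for each library and a short bar for each group mean. Genes were taken only where the groups did not overlap, the mean was at least 0 and no component correlated, filled symbols mark day 3, and replicate 5 (circles) is the lowest day 3 point for every gene on the right but *Taf10*.

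Gene lists are given as counts at an unadjusted p-value under 0.05 and as median differences, with the share of measured members in brackets. Beside these shares stand 3.64% higher and 3.26% lower over all genes. After a median of at least 0.2, brackets give its lowest and highest value over 18 other fits and then each library whose removal moves it by more than 1.5 times, and the medians within batches where at least 1 of them has the other sign. Of the 52 lists 38 had a median above that of all genes. A median closer to 0 than 0.2 is not read as a direction. The counts are small, and a single library can move them by more than 1.5 times, as from 4 to 1 higher glycolysis genes without day 3 replicate 5 or sham replicate 3.

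Glutamate receptors were among the lists with the highest medians. Of 31 AMPA, NMDA and kainate receptor subunits and partners 20 were measured, 3 higher (15%) and 0 lower at an unadjusted p-value under 0.05, and the median difference was 0.98 (0.37 to 1.11, 0.52 and 0.56 without day 3 replicates 16 and 22) beside 0.01 over all genes. That median was 0.37 among genes without correlation to a component, 0.37 with a floor on mean values and 0.42 with no components. *Grin1*, the obligatory subunit of NMDA receptors, had values of 0.37, 2.31 and 0.79 at day 3 and −1.31, −3.09, −0.71 and −1.18 after sham, and *Grid1*, an orphan subunit that binds the synaptic organizer cerebellin, had 0.76, 2.21 and 0.85 at day 3 and −0.65, −2.97, −0.86 and −1.44 after sham. Replicate 16 was the highest and sham replicate 10 the lowest in both genes, with differences of 3.50 ± 1.14 (SE, adjusted p = 0.603) and 3.04 ± 1.04 (SE, adjusted p = 0.603). *Grik1*, a kainate receptor subunit, had 1.43, 0.40 and 2.58 at day 3 and −0.95, −0.68, −0.70 and −0.70 after sham, and a difference of 2.69 ± 1.16 (SE, adjusted p = 0.655). Among metabotropic receptors 3 of 7 were measured. *Grm2*, which damps transmitter release, had 2.39, 1.74 and 0.05 at day 3 and −1.20, −3.03, −3.18 and −1.52 after sham, and *Grm7*, which does so at the active zone, had 2.23, −0.22 and 2.02 at day 3 and −0.30, −3.10, −0.68 and −0.97 after sham. No day 3 value of either gene overlaps the sham values, and the differences were 3.29 ± 1.12 (SE, adjusted p = 0.603) and 3.63 ± 1.29 (SE, adjusted p = 0.629), but *Grm7* is low in replicate 16, where it was −0.22. The median over the 3 receptors, 3.29, was 0.09 where a floor on mean values leaves fewer of them and reached 3.62 in the other fits. The deposited values of *Grin1*, *Grid1*, *Grm2* and *Grm7* still correlated with a quality component, as did those of 140 genes in all, although the authors had removed the components.

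Inhibitory and modulatory receptors gave 1 gene at that threshold. The 14 of 21 GABA and glycine receptor genes that were measured had a median of 0.34 (0.01 to 0.57, 0.10 and 0.17 without day 3 replicates 16 and 22, −0.15 and 0.43 within batches 1 and 2), with 0 higher and 1 lower (7.14%), the lower being the glycine receptor subunit *Glra3* at −3.20, −3.35 and −3.15 at day 3 and −0.36, −0.17, −1.25 and −1.33 after sham. For monoamine, acetylcholine and peptide receptors 13 of 47 were measured, 0 higher and 0 lower, and the median was −0.21 (−0.44 to 0.10, 0.05, 0.10 and 0.04 without day 3 replicates 5, 16 and 22, −0.07 and 0.02 without sham replicates 10 and 17, 0.59 and −0.77 within batches 1 and 2). Their differences reached from −1.89 for *P2rx7*, an ATP-gated channel, to 2.16 for *Drd1*, a dopamine receptor.

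Channels and pumps of excitable membranes had medians above that of all genes over the 7 libraries, which held within both batches for sodium and calcium channels only. The 16 of 28 sodium and calcium channel genes had a median of 0.79 (0.20 to 1.22, 0.20 without day 3 replicate 22), 1 higher (6.25%) and 0 lower. The higher gene was *Scn8a*, the sodium channel of the axon initial segment and the nodes, with 2.77, 0.97 and 2.78 at day 3 and 0.15, 0.18, 0.22 and 0.58 after sham and a difference of 2.01 ± 0.61 (SE, adjusted p = 0.58). Its sham values fall in a narrow band that replicate 16 clears by less than 1 log unit and replicates 5 and 22 by more than 2. Potassium and HCN channels counted 35 of 60, 3 higher (8.57%) and 0 lower, with a median of 0.49 (0.12 to 0.63). *Kcnc2*, a fast-repolarizing channel, had 1.12, 0.26 and 0.26 at day 3 and −1.08, −3.00, −2.13 and −0.93 after sham, and the differences of *Kcnf1* and *Kcnb2* were 2.98 ± 1.23 (SE) and 2.51 ± 1.20 (SE). Pumps and chloride transporters counted 21 of 25, 3 higher (14.3%) and 0 lower, with a median of 0.33 (0.16 to 0.52, 0.17, 0.50 and 0.49 without day 3 replicates 5, 16 and 22, 0.21, 0.52 and 0.50 without sham replicates 3, 10 and 14). *Atp1b1*, a subunit of the sodium pump, had 2.92, 2.87 and 2.98 at day 3 and 1.16, 2.46, 1.62 and 2.72 after sham, so that the 3 day 3 libraries nearly coincide above a spread of sham values. *Atp1b2*, the glial pump subunit, had 2.76, 2.61 and 1.44 at day 3 and 1.14, 1.40, 1.19 and 1.17 after sham, and the sodium-calcium exchanger gene *Slc8a2* differed by 3.01 ± 1.34 (SE). Within batches 1 and 2 the sodium and calcium channel median was 0.10 and 0.39. Within batch 1 the potassium channel median was −0.19 beside −0.14 over all genes, and within batch 2 that of pumps was −0.06 beside 0.13.

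Synaptic genes had medians above that of all genes on both sides of the cleft. Of 58 genes of vesicles and exocytosis 47 were measured, 6 higher (12.8%) and 1 lower (2.13%), and the median was 0.49 (0.21 to 0.64, 0.21 without sham replicate 3). The counts were 3 higher and 3 lower without day 3 replicate 5. They were 2 and 0 without day 3 replicate 16 or sham replicate 3, and 3 and 0 without sham replicate 14. *Unc13b*, which primes vesicles, had 1.55, 2.51 and 0.12 at day 3 and −0.63, −0.69, −0.19 and 0.07 after sham, and *Cadps*, which primes dense-core vesicles, had 0.62, −0.20 and 1.69 at day 3 and −0.73, −3.18, −2.94 and 0.10 after sham. *Synj1*, which uncoats vesicles after endocytosis, went the other way with 1.69, 1.68 and 1.97 at day 3 and 2.82, 2.17, 2.74 and 2.54 after sham and a difference of −0.84 ± 0.35 (SE, adjusted p = 0.655). *Syt1* had 3.56, 2.92 and 3.13 at day 3 and 1.12, 2.28, 2.93 and 2.95 after sham, where replicate 5 and sham replicate 3 set the extremes, and its difference was 1.11 ± 0.47 (SE, adjusted p = 0.655). Postsynaptic scaffold genes counted 29 of 35, 2 higher (6.9%) and 0 lower, with a median of 0.47 (0.38 to 0.69). *Dlg4*, which encodes the scaffold PSD-95, had 1.95, 1.51 and 1.51 at day 3 and 1.17, −0.29, −0.05 and 0.88 after sham, and *Camk2g*, a calcium-dependent kinase, had 2.53, 2.95 and 2.85 at day 3 and 0.55, 1.84, 1.10 and 2.66 after sham. Replicates 16 and 22 share the same *Dlg4* value, above all sham libraries, while sham replicate 17 overlaps day 3 for *Camk2g*. The 2 differences were 1.58 ± 0.64 (SE) and 1.35 ± 0.56 (SE).

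Markers of neuron types had medians of either sign. General neuron markers had a median difference of 0.74 (0.52 to 0.96) with 2 higher (14.3%) and 0 lower, and *Snap25*, of the vesicle fusion machine, had 2.63, 2.99 and 1.66 at day 3 and 1.13, 2.11, 1.65 and 2.09 after sham. Glutamatergic markers, 8 of 10 measured, had a median of 0.93 (0.77 to 1.10) with 1 higher (12.5%) and 0 lower. The higher gene was *Slc17a7*, the vesicular glutamate transporter, with 2.73, 2.43 and 2.01 at day 3 and 1.75, 1.93, 1.75 and 2.13 after sham and a difference of 0.88 ± 0.41 (SE, adjusted p = 0.699). Their means per library were 0.83, 1.34 and 0.62 at day 3 and −0.10, −0.08, 0.07 and 0.51 after sham, so that the lowest day 3 mean, in replicate 22, stands above the highest sham mean, in replicate 17. GABAergic markers, 9 of 19, had a median of −0.26 (−0.58 to −0.10, −0.10 without day 3 replicate 16, −0.56, −0.17 and −0.18 without sham replicates 3, 10 and 17) with 0 higher and 0 lower, from *Gad1*, the GABA-making enzyme, at −1.69 to *Npy*, a neuropeptide, at 2.00. Layer 5 and corticospinal markers, 10 of 15, had a median of 0.33 (0.15 to 0.69, 0.53 without day 3 replicate 22, 0.15 and 0.69 without sham replicates 3 and 10), and *Fezf2*, *Crym* and *Ldb2* among them were not analysed here. *Parm1* was their higher gene at 2.12 ± 0.82 (SE, adjusted p = 0.629) and the transcription factor gene *Bhlhe22* the lower at −2.71 ± 1.30 (SE, adjusted p = 0.713). Upper layer markers, 10 of 12, had a median of 0.26 (0.13 to 0.40, 0.17 without day 3 replicate 22, 0.15 and 0.40 without sham replicates 3 and 10) with 0 higher and 0 lower, and the lowest difference was −1.52 for *Rorb*. Layer 6 markers, 6 of 10, had 0.60 (0.01 to 1.09, 0.97, 0.01 and 1.07 without day 3 replicates 5, 16 and 22, 1.09 without sham replicate 10) with 1 higher (16.7%) and 0 lower, the gene being *Sox5*, a factor of deep-layer identity, with 0.65, 0.26 and 1.28 at day 3 and −3.23, −3.17, −0.38 and −0.01 after sham.

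*Rest* itself was at 1.64, 2.88 and 0.56 at day 3 and −0.55, −0.26, −0.39 and −1.55 after sham. The groups do not overlap, replicate 16 being the highest and replicate 22 the nearest to sham, and the differences within batches 1 and 2 were 2.04 and 3.84. Its fitted difference was 1.63 ± 0.96 (SE, adjusted p = 0.771), which did not pass the test, and its values are among those that still correlated with a component. Canonical REST target genes, 21 of 26 measured, had a median of 0.80 (0.42 to 1.07) with 2 higher (9.52%) and 0 lower, *Grin1* and *Snap25*. The mean over the targets was 0.69, 0.59 and 0.49 at day 3 and −0.81, 0.45, 0.45 and 0.36 after sham, with sham replicate 3 far below the other 6 libraries. REST corepressors, 19 of 22, had a median of 0.39 (0.17 to 0.66, 0.60 and 0.66 without sham replicates 10 and 14, −0.27 and 0.40 within batches 1 and 2) with 1 higher (5.26%) and 0 lower, and the higher gene was *Ctdsp2*, a phosphatase that REST brings to neuronal genes, with 2.77, 3.18 and 1.54 at day 3 and 0.60, 1.80, 0.89 and 1.92 after sham. Histone deacetylases and acetyltransferases, 22 of 26, counted 0 higher and 0 lower with a median of 0.26 (−0.04 to 0.38, −0.04, 0.01 and 0.07 without day 3 replicates 5, 16 and 22, −0.02 and 0.08 without sham replicates 3 and 14, −0.33 and −0.01 within batches 1 and 2), from −2.28 for *Kat2b* to 0.87 for *Kat7*.

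Transcription factors of peripheral nerve regrowth took no common direction. *Atf3* had −1.44, −1.65 and 0.25 at day 3 and 1.29, 0.29, 0.66 and 0.29 after sham, wholly below sham, and a difference of −1.46 ± 1.02 (SE, adjusted p = 0.832). *Jun* had 2.10, 2.86 and 1.84 at day 3 and 2.02, 2.13, 2.02 and 2.82 after sham with a difference of 0.47 ± 0.31 (SE, adjusted p = 0.816), and *Sox11* had 0.42, −0.67 and 0.38 at day 3 and −0.78, −0.47, −1.11 and −0.60 after sham with 0.83 ± 1.08 (SE, adjusted p = 0.937). In *Jun* and *Sox11* the groups overlap. *Smad1* had −1.08, −2.99 and 0.91 at day 3 and −3.42, −3.22, −0.59 and −0.21 after sham, spread over 3 log units in each group, and its difference of 0.73 ± 1.14 (SE) became −0.16 without day 3 replicate 22. Within batches 1 and 2 its differences were 2.24 and −2.58, of opposite sign. *Stat3* had 3.33, 3.35 and 2.33 at day 3 and 2.69, 2.35, 2.44 and 2.91 after sham, a difference of 0.65 ± 0.29 (SE, adjusted p = 0.687). The values of all 5 of these factors correlated with a component. On the list of 29 such factors 27 were measured, with a median of 0.15 and 2 higher (7.41%) and 0 lower, *Stat3* and *Egr1*, an activity-induced zinc finger factor at 2.60, 2.46 and 2.21 at day 3 and 1.85, 1.65, 1.33 and 2.61 after sham. Immediate early genes, 27 of 35, had a median of 0.28 (0.12 to 0.41, 0.13 without sham replicate 3, 0.34 and −0.04 within batches 1 and 2) with 4 higher (14.8%) and 0 lower. *Per1*, a clock gene also induced by stress hormones, had 2.39, 2.39 and 2.67 at day 3 and 1.99, 0.34, 1.31 and 1.23 after sham, and *Klf2*, a shear-responsive factor of endothelium, had 2.18, 0.85 and 2.10 at day 3 and −0.53, −0.58, −1.64 and 1.17 after sham. *Klf4*, which restrains axon growth in retinal neurons, had 2.41, 2.16 and 1.07 at day 3 and 0.14, 0.40, 0.64 and 0.44 after sham and a difference of 1.64 ± 0.63 (SE, adjusted p = 0.629), with replicate 22 the nearest to sham, and its values correlated with a component, as did those of *Egr1*. Together with *Epha4* it made up the 2 higher genes (13.3%) among 15 of 19 growth-restraining regulators, which had 0 lower and a median of 0.08.

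Growth cone genes counted on the higher side, and microtubule genes on both. Growth cone and axon growth proteins, 30 of 35 measured, counted 5 higher (16.7%) and 0 lower with a median of 0.36 (0.22 to 0.53, 0.22 without day 3 replicate 16). *Nrcam*, an adhesion molecule of axons and nodes, had 3.22, 1.86 and 2.02 at day 3 and −0.73, −0.49, −0.64 and 0.12 after sham and a difference of 3.33 ± 1.05 (SE, adjusted p = 0.601). *Cap2*, an actin regulator, had 3.23, 0.86 and 0.54 at day 3 and −1.06, −3.09, 0.10 and −0.29 after sham, and *Cntn1*, an axonal adhesion molecule, had 2.30, 2.56 and 1.53 at day 3 and 0.26, 0.62, 1.22 and 1.31 after sham. For *Nrcam* and *Cap2* replicate 5 is by far the highest library, and *Cntn1* reaches its lowest day 3 value in replicate 22, still above all sham values. Tubulins, microtubule proteins and motors, 61 of 65, were balanced at 4 higher (6.56%) and 5 lower (8.2%) with a median of 0.10. *Mapre2*, which binds microtubule ends, had 2.35, 2.42 and 0.64 at day 3 and 0.96, −3.12, −0.07 and 0.31 after sham and a difference of 3.31 ± 0.81 (SE), *Dync1i2*, a dynein chain, differed by 1.20 ± 0.46 (SE), and *Kif1a*, the motor of vesicle precursors, had −3.04, −0.07 and −2.58 at day 3 and 0.01, 2.09, 2.52 and −1.33 after sham and a difference of −3.55 ± 1.18 (SE). Axon guidance genes, 36 of 66, counted 3 higher (8.33%) and 1 lower (2.78%) with a median of 0.31 (0.07 to 0.76, 0.64 without day 3 replicate 5). The semaphorin receptors split, *Plxna1* having 2.19, 1.60 and 0.37 at day 3 and −0.80, −0.64, −1.38 and 1.40 after sham and *Plxna2* 0.73, 0.58 and 1.04 at day 3 and 2.56, 1.65, 1.17 and 2.02 after sham, with differences of 3.22 ± 1.18 (SE) and −1.19 ± 0.54 (SE), and the guidance ligand *Sema5b* differed by 3.17 ± 1.19 (SE).

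The matrix around the cells had more genes on the higher than on the lower side. Of 68 genes of matrix and integrins 38 were measured, 8 higher (21.1%) and 0 lower, and the median was 0.38 (0.33 to 0.52). The higher count was 4 without day 3 replicate 5, 4 without sham replicate 10 and 5 without day 3 replicate 22 or sham replicate 3. *Spock2*, a brain proteoglycan, had 2.59, 2.90 and 2.85 at day 3 and 1.33, 1.98, 1.70 and 1.84 after sham and a difference of 1.16 ± 0.37 (SE, adjusted p = 0.603). *Col3a1*, a fibrillar collagen, had 1.16, 1.46 and 0.57 at day 3 and −1.06, −3.04, −2.35 and −0.63 after sham, and *Timp3*, an inhibitor of matrix proteases, had 3.44, 2.74 and 3.33 at day 3 and 1.75, 2.09, 3.00 and 2.26 after sham. In *Spock2* the day 3 values are close together and apart from sham, and in *Timp3* sham replicate 14 lies among the day 3 values. *Itga8*, an integrin subunit, had 0.91, 0.72 and −2.18 at day 3 and −3.36, −2.82, −2.49 and −0.97 after sham, where replicate 22 lies among the sham values. Trophic factors and their receptors, 37 of 58, counted 4 higher (10.8%) and 2 lower (5.41%) with a median of −0.10. *Tgfb2*, a secreted growth factor, had 2.80, 2.16 and 1.80 at day 3 and −0.24, −0.32, −0.63 and −1.42 after sham and a difference of 3.26 ± 1.03 (SE, adjusted p = 0.601), and *Met*, the receptor for hepatocyte growth factor, had 2.05, 1.85 and 1.42 at day 3 and 1.47, −3.05, −1.24 and −2.02 after sham. Both genes correlated with a component. *Vegfb*, a vascular growth factor, had −2.97, −1.24 and 0.92 at day 3 and 2.42, 2.11, 1.55 and 0.81 after sham, the lowest value being that of replicate 5, and a difference of −3.71 ± 0.84 (SE, adjusted p = 0.33).

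The lists of vessel markers differed between batches 1 and 2. Day 3 replicates 5 and 16 are their only WT day 3 libraries, so batch and library cannot be told apart. Endothelial markers had 5 higher (31.2%) and 0 lower and a median of 0.79 (0.47 to 1.08, 0.47 without day 3 replicate 5), with a median of 1.30 within batch 1 and −0.12 within batch 2. *Tek*, the angiopoietin receptor, had 2.04, 1.46 and 1.30 at day 3 and −0.51, −2.99, −1.33 and −1.38 after sham and a difference of 3.77 ± 1.08 (SE, adjusted p = 0.537), above 0 in both batches at 3.80 and 2.82. *Flt1*, a VEGF receptor, had 3.58, 2.59 and 3.67 at day 3 and 2.69, 2.50, 2.50 and 2.86 after sham, and *Esam*, a junction molecule, had 2.93, 1.49 and 2.40 at day 3 and 0.11, 1.83, 1.51 and 1.49 after sham. For *Flt1* and *Esam* replicate 16 lies among the sham values. Pericyte and smooth muscle markers, 11 of 11, counted 0 higher and 0 lower with a median of 0.45 (−0.14 to 0.72, 0.19, −0.14 and 0.20 without day 3 replicates 5, 16 and 22, 0.22, 0.26 and 0.72 without sham replicates 3, 10 and 14), which was −0.52 within batch 1 and 0.13 within batch 2, from *Tagln* at −1.98 to *Myl9* at 1.50.

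Astrocyte markers had 4 higher (28.6%) and 1 lower (7.14%) and a median of 0.53 (0.09 to 0.72, 0.09 without day 3 replicate 16), with a median of 0.02 within batch 1 and 0.96 within batch 2. *Gja1*, the gap junction channel of astrocytes, had 0.99, 2.67 and 0.79 at day 3 and −0.20, 0.02, 0.62 and 0.09 after sham and a difference of 1.79 ± 0.53 (SE, adjusted p = 0.537). *Slc1a3*, a glutamate transporter, had 3.22, 3.31 and 2.28 at day 3 and 1.75, 2.16, 2.05 and 2.51 after sham with 1.03 ± 0.31 (SE, adjusted p = 0.537), and *S100b*, a calcium-binding protein, had −2.89, −2.26 and −2.04 at day 3 and 1.43, 1.33, 0.25 and −0.29 after sham with −3.73 ± 1.29 (SE, adjusted p = 0.608). *S100b* thus lay wholly below sham while *Gja1* lay wholly above. Oligodendrocyte markers, 12 of 14, counted 0 higher and 0 lower with a median of 0.32 (−0.70 to 0.80, 0.09, −0.21 and 0.17 without day 3 replicates 5, 16 and 22, −0.25 without sham replicate 10), or −0.70 with a floor on mean values and −0.28 and 0.41 within batches 1 and 2, between −1.38 for *Mal* and 0.81 for *Ugt8a*. Precursor markers, 5 of 8, counted 0 higher and 0 lower with a median of 0.77 (0.35 to 1.31, 1.31 without day 3 replicate 16, 1.21 without sham replicate 10), and *Olig1*, a factor of that lineage, had 1.20, 0.29 and 0.69 at day 3 and −0.99, −3.34, −0.17 and −0.34 after sham. Microglia and macrophage markers had 0 higher and 2 lower (10.5%) and a median of −0.10. The lower genes were *Siglech*, a microglial lectin, with 1.18, 1.70 and 2.59 at day 3 and 2.51, 2.39, 3.23 and 2.95 after sham and a difference of −1.17 ± 0.47 (SE, adjusted p = 0.638), and *C1qb*, a chain of the complement starter C1q, with 3.53, 3.02 and 2.96 at day 3 and 3.45, 3.63, 3.38 and 3.36 after sham and −0.44 ± 0.19 (SE, adjusted p = 0.655). *C1qb* and *C4b*, a later complement factor at −2.31, 1.16 and 2.53 at day 3 and 2.30, 3.05, 1.52 and 2.13 after sham, were also the lower genes (15.4%) among 13 of 16 complement and pruning genes, with 0 higher and a median of −0.41 (−0.50 to 0.03, 0.03 without day 3 replicate 16). Replicate 5 alone has *C4b* below 0.

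Interferon, antigen presentation and cytokine genes, 54 of 58, were balanced at 3 higher (5.56%) and 3 lower (5.56%) with a median of −0.01. *Cx3cl1*, the neuronal chemokine read by the microglial receptor *Cx3cr1*, had 2.11, 1.76 and 2.32 at day 3 and −0.06, 1.60, 1.04 and 1.39 after sham and a difference of 1.54 ± 0.60 (SE, adjusted p = 0.629). *Il18*, an inflammasome cytokine whose values correlated with a component, had 2.70, 2.25 and 2.71 at day 3 and 1.82, 0.85, −0.64 and −1.34 after sham, and *Irf2*, a repressor of interferon genes, had −2.06, −0.04 and −1.18 at day 3 and 1.12, 1.94, 0.15 and 0.85 after sham. The day 3 values of *Il18* are close together, and its sham values run over 3 log units. JAK-STAT, gp130 and SOCS genes, 26 of 32, had a median of −0.03 with 1 higher (3.85%) and 1 lower (3.85%), *Stat3* and *Stat5b*, the latter at −1.73 ± 0.82 (SE).

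Ribosomal protein genes separated the groups in a way that depended on the scaling. All 77 were measured, and 15 had day 3 values wholly above sham while 0 had them wholly below, but after quantile normalization these counts were 2 and 4. The 15 are 19.5% beside 3.98% over all genes, and the later counts are 2.6% and 5.19% beside 2.88% and 3.41%. At an unadjusted p-value under 0.05 they counted 7 higher (9.09%) and 0 lower, and the median difference was 0.09, which quantile normalization turned to −0.05. *Rpl35a* had 3.77, 3.84 and 3.73 at day 3 and 3.19, 3.60, 3.46 and 3.41 after sham, *Rpl28* had 3.63, 3.25 and 3.39 at day 3 and 2.12, 2.60, 2.77 and 2.87 after sham, and *Rpl27a* had 3.77, 3.56 and 3.03 at day 3 and 3.32, 2.44, 2.55 and 2.81 after sham. Their differences were 0.42 ± 0.14 (SE), 0.90 ± 0.33 (SE) and 0.81 ± 0.27 (SE). *Rpl5*, at 2.91, 2.89 and 3.55 at day 3 and 2.63, −0.20, 0.67 and 0.94 after sham, has the widest sham spread of those named, and its values correlated with a component. The list mean was 3.01, 2.74 and 2.76 at day 3 and 2.77, 2.77, 2.74 and 2.68 after sham, so replicate 5 was highest and sham replicate 17 lowest, and the median was 0.28 within batch 1 and 0.02 within batch 2.

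Lists of energy metabolism differed in their counts. Nuclear oxidative phosphorylation genes, all 77 measured, counted 4 higher (5.19%) and 0 lower with a median of 0.07. *Cox7a2*, a subunit of cytochrome oxidase, had 3.16, 3.63 and 3.47 at day 3 and 1.61, 3.10, 2.60 and 2.71 after sham and a difference of 1.07 ± 0.31 (SE, adjusted p = 0.537), with sham replicate 3 low, and *Cox6a1* and *Ndufa10* differed by 0.87 ± 0.35 (SE) and 1.89 ± 0.78 (SE). Mitochondrially encoded genes, 14 of 15, had a median of 0.03, or −0.08 after quantile normalization, with 0 higher and 1 lower (7.14%), *mt-Atp6* at 1.31, 1.40 and 2.70 at day 3 and 4.03, 1.66, 2.58 and 2.83 after sham. Glycolysis genes, all 23 measured, counted 4 higher (17.4%) and 0 lower with a median of 0.33 (0.23 to 0.48). *Pdha1*, which feeds pyruvate into mitochondria, had 2.49, 1.97 and 2.67 at day 3 and 0.66, 1.19, 1.48 and 1.50 after sham and a difference of 1.50 ± 0.45 (SE, adjusted p = 0.537). The glucose transporters *Slc2a1*, of vessels, and *Slc2a3*, of neurons, had 3.26, 2.99 and 3.30 at day 3 and 2.32, 2.27, 2.70 and 2.95 after sham, and 1.13, 1.04 and 0.98 at day 3 and −0.32, −0.59, 0.32 and 0.07 after sham. Neither transporter overlaps between groups, and their differences were 0.84 ± 0.36 (SE) and 1.58 ± 0.76 (SE). Cholesterol synthesis genes, 24 of 27, counted 2 higher (8.33%) and 1 lower (4.17%) with a median of 0.63 (0.22 to 0.78, 0.38, 0.30 and 0.22 without day 3 replicates 5, 16 and 22), which was −0.26 within batch 1 and 0.48 within batch 2. *Msmo1*, a sterol demethylase, had 3.21, 2.09 and 2.02 at day 3 and 1.87, 0.60, 1.63 and 1.58 after sham, wholly above sham. *Ebp*, the sterol isomerase, had −2.44, −1.56 and 1.05 at day 3 and 1.11, 1.99, 0.66 and 1.58 after sham, a difference of −3.19 ± 0.84 (SE, adjusted p = 0.497), with replicate 5 lowest and replicate 22 among the sham values.

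The proteasome list rested on day 3 replicate 5. Proteasome subunits, all 37 measured, counted 0 higher and 4 lower (10.8%) with a median of −0.16, and without day 3 replicate 5 the lower count was 1 and the median 0.01. Without sham replicate 10 the lower count was 2, and the medians within batches 1 and 2 were 0.04 and 0.02. Beside *Psmc5*, the lower genes were *Psma6* at −2.53, 0.62 and −1.10 at day 3 and 1.35, 1.15, 0.48 and 0.74 after sham, *Psmc1* at −2.54, 0.00 and −1.78 at day 3 and 1.35, 1.38, 0.35 and 0.45 after sham and *Psme3* at −2.51, −1.37 and −1.20 at day 3 and −0.78, 0.88, 1.54 and −1.32 after sham. Replicate 5 is under −2 in all 3 and in no other library is any of them that low. Autophagy and lysosome genes, 39 of 45, had a median of −0.11 with 3 higher (7.69%) and 1 lower (2.56%). *Map1lc3a*, a coat protein of autophagosomes, had 1.73, 2.07 and 1.06 at day 3 and −0.35, 0.11, 0.89 and 0.59 after sham, *Lamp1*, of the lysosome membrane, had 3.61, 3.37 and 3.40 at day 3 and 3.07, 3.22, 2.72 and 3.05 after sham, and *Tfe3*, a driver of lysosome genes, differed by −2.10 ± 0.95 (SE). Of these, *Lamp1* has the tightest values, and its groups do not overlap.

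Lists of stress programs follow, beside 3.64% higher and 3.26% lower over all genes. Unfolded protein and integrated stress response genes, 43 of 45, had a median of 0.00 with 3 higher (6.98%) and 1 lower (2.33%). *Ddit4*, which dampens mTOR under stress, had 2.88, 2.63 and 2.65 at day 3 and 1.73, 1.57, 2.11 and 1.82 after sham and a difference of 1.02 ± 0.38 (SE, adjusted p = 0.629), and *Eif2ak3*, the sensor kinase PERK, had 1.53, 0.65 and 1.04 at day 3 and −1.05, −3.21, 0.46 and −1.23 after sham. *Chac1*, which degrades glutathione, was higher at 2.98 ± 1.36 (SE) and the chaperone gene *Dnajb9* lower at −1.62 ± 0.75 (SE). Heat shock proteins, 33 of 36, counted 0 higher and 1 lower (3.03%) with a median of 0.06, and the lower gene was *Ahsa1*, a cochaperone of Hsp90, with 0.89, 0.99 and 0.11 at day 3 and 2.56, 2.17, 1.10 and 1.32 after sham. Antioxidant and oxidative stress genes, 58 of 69, had a median of −0.13 with 4 higher (6.9%) and 3 lower (5.17%). The metallothioneins *Mt1* and *Mt3*, which bind zinc, had 3.07, 2.71 and 3.42 at day 3 and 2.50, 2.39, 2.59 and 2.19 after sham, and 2.63, 0.86 and 1.63 at day 3 and −0.88, −3.00, 0.29 and −0.01 after sham, whereas *Hmox2*, a haem oxygenase, had −2.39, −1.68 and −2.48 at day 3 and −0.85, 1.63, 0.79 and −0.29 after sham. Neither metallothionein overlaps between the groups, and *Hmox2* lies wholly below sham, with differences of 0.72 ± 0.25 (SE), 2.92 ± 1.10 (SE) and −3.04 ± 1.34 (SE). Apoptosis and p53 genes, 39 of 53, were balanced at 2 higher (5.13%) and 2 lower (5.13%) with a median of −0.19. *Pmaip1*, which encodes the death factor Noxa, had −2.83, −2.15 and −1.21 at day 3 and −0.43, 1.56, 0.21 and 0.21 after sham, *Birc2*, an inhibitor of apoptosis, had −2.63, −2.68 and 0.84 at day 3 and 1.89, 0.87, 0.79 and 1.91 after sham, and *Cdkn1a*, the p53 target p21, had 2.26, 1.07 and 0.53 at day 3 and 0.58, −2.90, 0.61 and −0.01 after sham. Death-promoting *Pmaip1* was lower, as was death-inhibiting *Birc2*, where replicate 22 lies apart from replicates 5 and 16.

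Among signalling genes the cyclic AMP branch had the highest median. Cyclic AMP and G protein genes, 47 of 55, counted 4 higher (8.51%) and 0 lower with a median of 0.35 (0.24 to 0.48). *Crem*, a cyclic AMP response factor, had 0.40, 0.14 and 0.66 at day 3 and −2.89, −3.01, −2.24 and −0.09 after sham and a difference of 3.24 ± 1.14 (SE, adjusted p = 0.629). The phosphodiesterase genes *Pde2a* and *Pde4a*, which degrade cyclic AMP, had 1.94, 2.25 and 1.71 at day 3 and 1.24, 0.70, 1.23 and 1.66 after sham, and 3.28, 2.40 and 2.75 at day 3 and −0.32, 1.52, 1.79 and 2.15 after sham. All 3 genes are without overlap, though sham replicate 17 comes within 1 log unit of day 3 in each. MAP kinase genes, 49 of 59, had a median of −0.04 with 2 higher (4.08%) and 1 lower (2.04%). *Map2k1*, the kinase above ERK, differed by 1.24 ± 0.46 (SE), *Map3k10* by 2.67 ± 1.25 (SE) and *Mapk14*, the stress kinase p38α, by −2.44 ± 1.00 (SE).

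**Figure D3:**
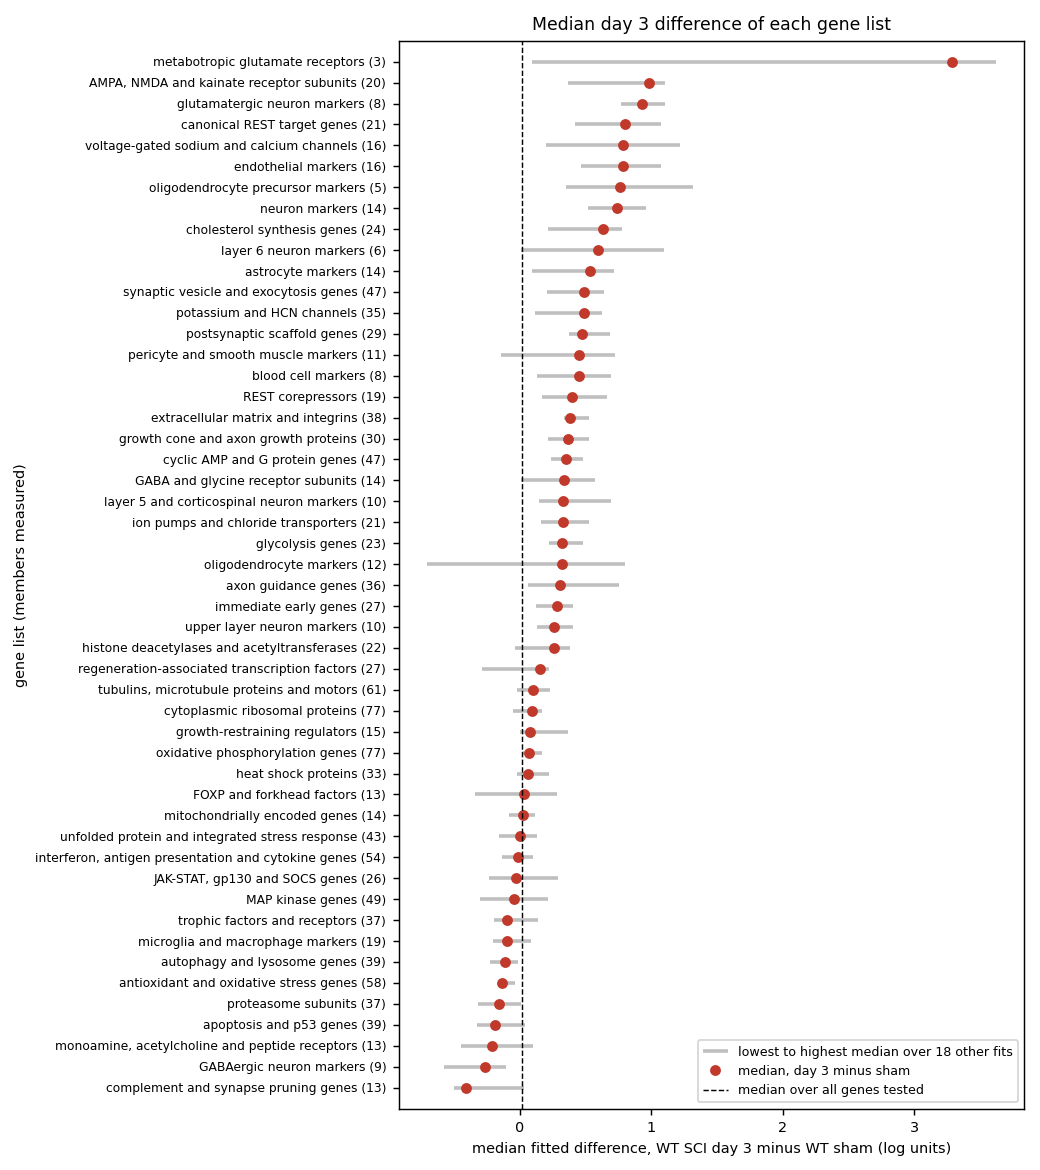
Median fitted difference, day 3 minus sham in log units, of gene lists of cell markers and pathways, with the number of measured members in brackets and grey lines from the lowest to the highest median over 18 other fits. The dashed line is the median over all 9931 genes, 0.01.

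Values at day 1 and day 7 place the day 3 values in time. These comparisons share the WT sham libraries, so their values are set side by side and not counted as repeats. *Foxp1* differed from sham by −0.18 at day 1 and 0.85 at day 7, beside 1.86 at day 3. *Rest* differed by 1.04, 1.63 and 2.04 at days 1, 3 and 7, *Mapt* by 1.46, 1.49 and 0.31, and *Nrcam* by 1.04, 3.33 and −1.43. The median of AMPA, NMDA and kainate receptor genes was 1.20 at day 1 and 0.19 at day 7, and that of glutamatergic markers was 1.12 and −0.16, while the medians over all genes were 0.12 and −0.12. The direct test of day 3 against day 1 in limma called 0 genes, with 611 (6.15%) at an unadjusted p-value under 0.05, 265 (2.67%) higher and 346 (3.48%) lower at day 3. Against day 7 it called 1 gene (0.0101%), and of 970 genes (9.77%) at an unadjusted p-value under 0.05, 634 (6.38%) were higher and 336 (3.38%) lower at day 3. The gene was *Lgals8*, a galectin that marks damaged endosomes, 2.87 ± 0.52 (SE, adjusted p = 0.0951) higher at day 3 than at day 7, and it was named after its values were seen. Its values were 3.23, 1.88 and 2.89 at day 3 and 1.86, 1.42, 1.33 and 1.51 after sham, and it differed from sham by 1.05 at day 3 and −1.83 at day 7. The test against day 7 called 0 genes with a term for batch, sex or low values. It also called 0 with library weights, only the 13 WT libraries or quantile normalization, but 18 with no components and 13 with no trend. Leaving out 1 library moved this count of 1 to 0 for day 3 replicate 5, for each sham replicate (3, 10, 14 and 17) and for day 7 replicate 12, to 5 genes without *Lgals8* for day 3 replicate 22, and with it to 3 for day 7 replicate 7 and to 35 for day 7 replicate 4. Leaving out day 3 replicate 5 gave 1 gene against day 1, *Fkbp5*, a stress hormone target, at −4.66.

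The day 3 values of REST cKO mice, taken against their own sham libraries, are given beside the WT values. There *Foxp1* differed by −0.14, *Zfand5* by −0.47, *Mapt* by −1.03 and *Grin1* by −1.29. Of the 10 genes named on the higher side 4 were above 0 there and 6 below. Of the 10 named on the lower side 5 were above 0 and 5 below. Medians were −0.74 for neuron markers, −0.66 for AMPA, NMDA and kainate receptor genes, −0.73 for canonical REST targets and −0.35 for astrocyte markers, where WT had 0.74, 0.98, 0.80 and 0.53. Microglia and macrophage markers had 0.41 there and −0.10 in WT. Glutamatergic markers also had opposite signs, at −0.37 there and 0.93 in WT. So did vesicle and exocytosis genes, at −0.37 and 0.49, and sodium and calcium channels, at −0.24 and 0.79, among further lists. Some lists had the same sign in both, as oligodendrocyte markers at 0.45 there and 0.32 in WT. Pericyte and smooth muscle markers had 0.38 there and 0.45 in WT, and blood cell markers 0.40 and 0.45. The test of the difference between the day 3 responses of the genotypes called 0 genes in limma, with 511 (5.15%) at an unadjusted p-value under 0.05, 287 (2.89%) higher and 224 (2.26%) lower in REST cKO, so no gene is shown to respond differently.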

How the data were processed

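The authors aligned 3′ reads to mm10/GRCm38 with STAR, quantified transcripts with Salmon, summed them per gene with tximport, scaled libraries by the DESeq2 method, removed batch effects with RUV, filtered out genes that few libraries detected and regressed out 2 sequencing components. They deposited the result as log2 normalized counts, the values used here. Fold changes, p-values and adjusted p-values of the authors' own comparisons stand in the same table and were not used. Of 9955 entries 24 without a symbol were left out. Limma 3.58.1 in R 4.3.3 fitted 8 group means and the 2 components over 25 libraries, with empirical Bayes moderation that follows the trend of variance with mean, and p-values were adjusted by Benjamini-Hochberg over 9931 genes. The threshold was an adjusted p-value under 0.1. Counts without overlap use deposited values and no test. The procedure was checked on simulated data with independent noise in each gene. These data held no library rich in low values, so the check does not cover that feature.

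Named genes are those that passed, the 10 genes per direction with the lowest p among those with an unadjusted p-value under 0.05, no overlap, a mean of at least 0 and no correlation with a component above 1e-05, at most 4 genes per list by p (or the extremes where no member qualified), and *Rest* and 5 transcription factors. The 52 lists (13 of cell markers, 38 of pathways and 1 of sex-linked genes) hold 1607 genes, of which 1280 were measured, and 1 pathway list and some genes that the rule names are not reported here. Libraries, members and lists were chosen with earlier results of these data known. Genes cited for their level, and *Lgals8*, *Fkbp5*, *Vegfb*, *Rnf145*, *Wtip* and *Ebp* as genes that passed elsewhere, were chosen after their values were seen. Alternatives were no components, only the 7 or the 13 WT libraries, terms for batch, sex or share of low values, library weights, a floor on mean value, no trend, quantile normalization, only genes without correlation to a component, stricter thresholds and leaving out each library. Values within batches were added after seeing the data.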

Additional observations from a re-analysis of the deposited data

Results flagged for a closer look

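In the 4 WT sham libraries 1 value can lie far from the other 3. The gap to the nearest library, as a share of the whole range, was 0.864 for *Epha4* and 0.889 for *Tsc22d1*, where sham replicates 10 and 3 were low, and 0.923 for *Pald1*, where sham replicate 14 was high. It was 0.953 for *Bhlhe22* (sham replicate 10 low), 0.931 for *Grik1* (sham replicate 3 low), 0.845 for *Scn8a* and 0.867 for *Kcnf1* (sham replicate 17 high), 0.925 for *Kcnb2* (sham replicate 14 low) and 0.884 for *Kat2b* (sham replicate 17 low). *Jun* had 0.853, with sham replicate 17 high, and *Ddx3y* had 0.847, with sham replicate 3 high, the 1 sham library with a clear male value. Among list means the share was 0.973 for metabotropic glutamate receptors, where sham replicate 10 had −1.53, 0.924 for canonical REST targets, where sham replicate 3 had −0.81, and 0.913 for oxidative phosphorylation genes, where sham replicate 10 had 2.07. Of 198 sets of 4 values 14 (7.07%) exceeded the critical value of Dixon's test, and chance alone puts about 1 in 20 above it.

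*Lgals8* is the 1 gene whose day 3 and day 7 values differed by a direct test in the report's fit, with an adjusted p of 0.0951 in limma. No gene passed once a term for batch, for sex or for the share of low values was added.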

How the results depend on the processing

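The 1 gene that passed at day 3 was lost (0 genes) with no components, with only the 7 or the 13 WT libraries, with a term for batch or for the share of values under −2, with library weights, no trend, quantile normalization or an adjusted p-value under 0.05, and leaving out 1 library gave 0 to 5 genes. It passed with a term for sex, with a floor of 0 on mean values and among uncorrelated genes. The unadjusted counts of 361 higher and 324 lower genes were 85 and 67 at an unadjusted p-value under 0.01, and the lower count was 213 with the term for low values and 207 with the floor on mean values. Leaving out 1 library gave 292 to 389 higher and 212 to 516 lower genes. Counts without overlap were 582 to 978 higher and 336 to 767 lower with 1 library fewer, which eases the criterion, and 150 lower with the floor on mean values, which tests fewer genes. Day 3 against day 1 gave 0 genes in every fit but the 1 without day 3 replicate 5, so 0 to 1 on leaving out libraries. Day 3 against day 7 gave 18 genes with no components, 13 with no trend, 0 with the 13 WT libraries, a term for batch, sex or low values, library weights, quantile normalization or an adjusted p-value under 0.05, and 0 to 35 on leaving out libraries. The test between genotypes gave 0 genes in every fit run, and the fits limited to WT libraries could not give it. Named genes were chosen mainly by p, lack of overlap or an extreme difference in these same libraries, which favours an unchanged sign on refitting. Of 2558 refitted values of 145 named genes 11 took the other sign, in 5 genes. These were *Cspg5*, 0.07 in the report's fit, at −0.19 with no components and with the 7 libraries, −0.37 with the 13 WT libraries and −0.50, −0.29 and −0.04 without day 3 replicate 16, sham replicate 3 and sham replicate 17, *Hbb-bt* at −0.053 and *Cd79a* at 0.053 without day 3 replicate 5, *Kat7* at −0.0017 without day 3 replicate 16, and *Smad1* at −0.036 with the 13 WT libraries and −0.16 without day 3 replicate 22. Leaving out 1 library gave −0.50 to 0.66 for *Cspg5*, −0.053 to 2.62 for *Hbb-bt*, −1.77 to 0.053 for *Cd79a*, −0.0017 to 1.92 for *Kat7* and −0.16 to 2.09 for *Smad1*. Within batch 1 or 2, values added after seeing the data, 14 of the 145 genes had the sign opposite to the fit, among them *Smad1* at 2.24 and −2.58. Of 953 refitted list medians 49 moved by more than the spread between replicates. The cause of these shifts was not tested. Read counts were not analysed here, so what depth limits could not be examined. No paired analysis was possible because the groups compared share no replicate numbers, and the batches that they share in part entered as a term in 1 fit.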

Other observations

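Genes of blood cells were present in the sorted cells. Of 10 markers 8 were measured, 0 higher and 0 lower, with a median difference of 0.45 (0.13 to 0.69, 0.13 without day 3 replicate 5, 0.17 and 0.69 without sham replicates 3 and 10) and means per library of 2.95, 2.34 and 1.78 at day 3 and 1.10, 2.59, 2.10 and 1.77 after sham. The haemoglobin gene *Hbb-bt* had 3.21, 0.98 and −2.76 at day 3 and −0.57, 0.21, 0.53 and −2.17 after sham, and *Cd79a*, part of the B cell receptor, had −2.08, 0.83 and 2.05 at day 3 and 0.46, 2.13, 0.18 and −0.27 after sham. The first is high in day 3 replicate 5 and low in replicate 22, and the other is ordered the opposite way.

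Without day 3 replicate 22, 4 genes passed at day 3 beside *Foxp1*. *Wtip*, a cytoskeletal adaptor, had values of 2.16, 2.64 and −1.45 at day 3 and −2.98, −2.93, −1.42 and −1.54 after sham, with replicate 22 among the sham values. *Rnf145*, a ubiquitin ligase of sterol control, had −2.03, −1.45 and 1.40 at day 3 and 0.60, 1.99, 1.80 and 1.65 after sham, and like *Vegfb* and *Ebp* it is low in replicates 5 and 16 only. With all libraries the differences of the 4 genes were 4.17 ± 1.09 (SE, adjusted p = 0.485), −2.68 ± 0.76 (SE, adjusted p = 0.537), −3.71 ± 0.84 (SE, adjusted p = 0.33) and −3.19 ± 0.84 (SE, adjusted p = 0.497).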
